A study of Mus musculus with 14 samples.

Results

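The 7 arrays of wild-type cells, of 14 in the series, compare mast cells before and after coculture with fibroblasts. They were chosen by the sample titles alone, 3 as wild-type BMMCs and 4 as wild-type cocultured BMMCs. BMMCs are bone marrow-derived mast cells, immature cells grown from mouse marrow in medium with IL-3. These cells carry Pla2g3, the gene of group III secreted phospholipase A2, and the other 7 arrays held Pla2g3 knockout cells (4 BMMCs, 3 cocultured). The labels give all 14 samples the same mouse strain. Per the labels, marrow cells had spent 4 to 6 weeks in culture and over 97% of them carried both Kit and the IgE receptor chain FcεRIα. Cocultured cells were kept for 96 h on Swiss 3T3 cells, a mouse fibroblast line, with 100 ng/ml of stem cell factor, the ligand of Kit. They were then trypsinized and replated, the cells that did not adhere were collected, and over 99% of these carried Kit and FcεRIα. The labels name stem cell factor for the cocultured cells alone and do not say whether IL-3 was still present, so fibroblast contact, stem cell factor and a change in IL-3 cannot be told apart. Whether each replicate is a mouse or culture of its own is not stated, and the p-values then cover only the variation among these samples, which may in part be technical. The BMMC arrays did not all hold the same cells, as the sex-linked genes given with the arrays show.

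Mast cells depend on cytokines that signal through JAK kinases and STAT5, and on Kit. Cytokine signalling switches on its own brakes, the SOCS proteins, and survival kinases of the Pim family. NF-κB is a family of transcription factors held in the cytoplasm by IκB proteins; its targets include the genes of several of those IκB proteins and of other NF-κB subunits. Cells short of oxygen stabilise the factor HIF, which binds a short sequence in genes of glycolysis and pH control.

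RNA was hybridised to single-colour Agilent whole mouse genome arrays, and a level here is the log2 signal minus that array's 75th percentile, which therefore lies at 0. On the wild-type arrays this percentile was 81 to 143 signal units and 19573 to 22614 of 41174 probes were well above background. Precision is limited by how many arrays there are. BMMC arrays 1, 2 and 3 lay on slides 1, 2 and 3, cocultured array 1 on slide 2, arrays 2 and 4 on slide 3 and array 3 on slide 4, which was scanned on a second day. All BMMC arrays took the first position of their slide, and the cocultured arrays position 3 or 4, so position and group cannot be told apart. Across genes, which are not independent replicates, cocultured array 3 correlated at r of 0.899 to 0.919 with the other wild-type cocultured arrays and at 0.979 and 0.967 with knockout cocultured arrays 1 and 2. Whether the wild-type label of cocultured array 3 is right could not be checked, since Pla2g3 was too near background, and the label was kept as given. Values with and without cocultured array 3 are given beside many of the results it moves. The Y-linked Eif2s3y was at -5.64, 3.03 and -5.52 on the BMMC arrays and between 2.66 and 3.38 on the cocultured ones and Xist, transcribed from the inactive X chromosome, was at 5.69, -6.37 and 5.86 and between -0.77 and 3.51. BMMC arrays 1 and 3 had Xist but not Eif2s3y above background, BMMC array 2 the reverse, and all cocultured arrays had both. Sex and group are thus partly mixed, and the part of sex in the results was not tested. On cocultured arrays 1 to 4 Xist was at 1.69, 3.51, -0.77 and 1.57. The median of the fibroblast markers described later, relative to the BMMC mean, was 4.64, 6.53, 1.66 and 4.74. Both were highest on array 2 and lowest on array 3, and which cells the Xist signal came from was not tested. Pla2g3 itself was measurable over background on 1 BMMC array and 2 cocultured arrays, with a difference of 0.36 (SE 0.54, adjusted p = 0.75).

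Rises and falls after coculture were about equally many. Limma called 2026 of 16012 genes (12.7%) at an adjusted p under 0.05, and "rose" and "fell" refer to that threshold throughout. Of all genes tested, 1020 rose (6.37%) and 1006 fell (6.28%), and an unadjusted p under 0.05 was reached by 4179. Of the genes that rose, 371 were by their brightest probe not well above background ("below background" from here on) on every BMMC array, and 142 of those that fell were below background on every cocultured array. The median over all genes was -0.01, and scaling each array to its median in place of its 75th percentile moved it by -0.19. With background correction by normexp, 815 genes rose and 1206 fell, so that 40.3% of calls were rises in place of 50.3%. In 4090 genes (25.5%) the arrays of the groups did not overlap. Without cocultured array 3 the fit called 2373 genes, 1775 of them the same (7.78% of all genes higher and 7.04% lower), and without BMMC arrays 1, 2 and 3 it called 1187, 1155 and 1106. The count was 3673 without cocultured array 3 and the knockout cocultured array on the same slide, which were left out only once their correlations were known. With slide as a block 1894 genes were called. Within slides 2 and 3, which held both groups, all called genes with a value differed in the same direction (2025 of 2025 and 2026 of 2026), which the calls nearly fix, since these arrays took part in them.

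**Figure D1:**
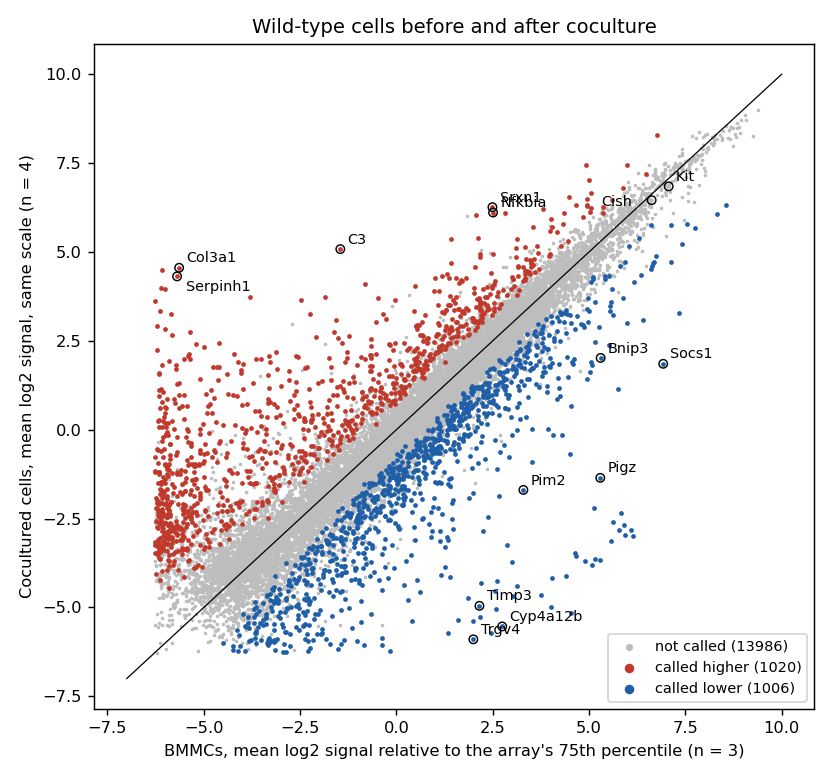
Mean level of each of 16012 genes in wild-type BMMCs (x axis, n = 3) and cocultured cells (y axis, n = 4), in log2 signal relative to the array's 75th percentile, with called genes in colour and the diagonal marking equal levels. Called rises crowd the left edge, where 371 genes had no BMMC signal well above background, while Kit and Cish, at the upper right, lie on the diagonal.

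Among genes measured well above background on all 7 arrays, outside the mediator lists, the largest rise was that of C3, the central component of complement. It was at -2.88, 0.13 and -1.62 on the BMMC arrays and at 4.86, 7.54, 2.17 and 5.75 on cocultured arrays 1 to 4, a rise of 6.54 (SE 1.03, adjusted p = 0.0014). Every cocultured array was above every BMMC array, which the choice of these genes required, and cocultured array 3 was the lowest of the 4. Another probe of C3, below background in BMMCs, differed by 2.82. Cd248, a stromal cell surface glycoprotein, rose by 5.65, Pcolce, which enhances procollagen cleavage, by 5.48, and Maged1, an adaptor of neurotrophin receptor signalling, by 5.33. In these 3 genes cocultured array 3 stood far below the others, at -1.65 against 3.01, 4.19 and 2.43 for Cd248. It was also the lowest for Timp2, Fzd1, Adamts1 and Tnfrsf9, with rises of 4.67, 4.21, 4.2 and 4.38; the last is the costimulatory receptor 4-1BB. Another 3 rises were not smallest on that array. Cdk18, a PCTAIRE family kinase, was at 3.65, 2.26, 3.92 and 2.52 after and -2.22, -0.44 and -2.02 before coculture, a rise of 4.64 (SE 0.66, adjusted p = 0.000707). Fam110c rose by 4.6 (SE 0.55). Efnb2, a membrane ligand of Eph receptors, rose by 4.18 (SE 0.49) and lay between 3.21 and 4.53 on all 4 cocultured arrays.

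The 12 largest falls of genes measured on all 7 arrays, chosen in the same way, included Socs1 and Pim2, described with their pathway afterwards. Ighv1-12, an immunoglobulin heavy chain variable segment, went from 5.46, 4.39 and 5.56 to -2.98, -2.88, -0.52 and -2.47, and so fell by 7.35 (SE 0.68, adjusted p = 3.31e-05). V segments are near copies of each other, so the probe may read several. Pigz, a mannosyltransferase of GPI anchor synthesis, stood at 5.18, 5.45 and 5.25 on the BMMC arrays and -2.29, -1.21, -0.84 and -1.07 on the cocultured ones. It fell by 6.65 (SE 0.51, adjusted p = 7.72e-06). Cyp4a12a, a fatty acid omega-hydroxylase, fell by 6.12 (SE 0.36), but shares most of its sequence with Cyp4a12b. Spns3, a sphingolipid transporter-like protein, fell by 5.18 (SE 0.89), and cocultured array 3 kept more of it, at 0.98 against -1.75 to -0.92 on the others. Serpina3f, one of a cluster of similar protease inhibitors, fell by 4.55 and its neighbour Serpina3g by 4.04, from 7.32 to 3.28 on average. Gpr176, an orphan receptor, fell by 4.45. Ppp1r3g, which directs protein phosphatase 1 to glycogen, fell by 4.42 and was nearly the same on all 4 cocultured arrays (-0.9, -0.95, -0.95 and -0.81). Tanc2, a scaffold protein, fell by 4.21 (differences of -1.89, -1.39 and -2.5 on its other probes) and Mamdc2, a secreted MAM domain protein, by 4.26. Mrvi1, a substrate of cGMP-dependent kinase, completed the 12 with a fall of 4.6 (SE 1.05, adjusted p = 0.0123), which was not called without BMMC array 3 (adjusted p = 0.0521). The other 11 of these 12 falls, and the 11 rises before them, stayed called whichever wild-type array was left out and under the other 4 scalings.

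**Figure D2:**
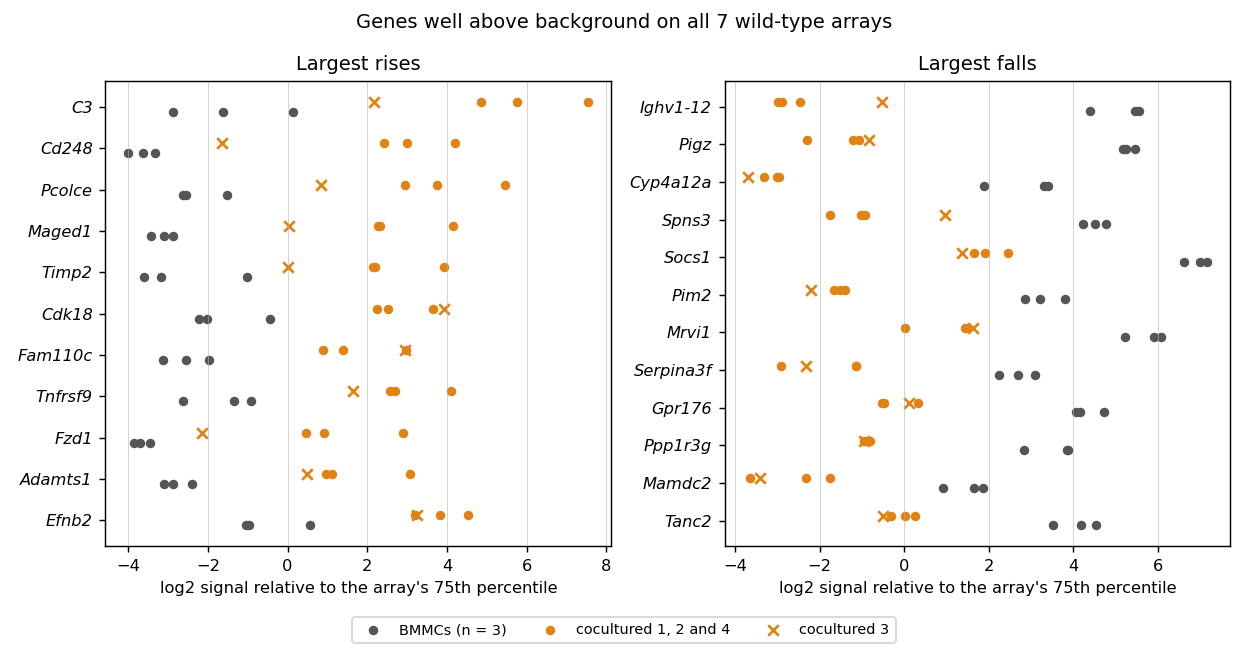
Level on each wild-type array (x axis, log2 signal relative to the array's 75th percentile) of 11 of the 12 genes with the largest rise (left) and the 12 with the largest fall (right) among genes well above background on all 7 arrays, mediator genes left out. Grey points are the 3 BMMC arrays, orange points cocultured arrays 1, 2 and 4, and the orange cross cocultured array 3, which is the lowest cocultured array for C3 and Cd248 but not for Cdk18 or Efnb2.

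Socs1 and Pim2, both known targets of cytokine signalling through STAT5, were among these falls. Socs1, which inhibits JAK kinases, stood at 6.61, 7.17 and 6.99 on the BMMC arrays and at 1.66, 2.46, 1.38 and 1.92 after coculture. It fell by 5.07 (SE 0.35, adjusted p = 3.6e-06), on a probe at chromosome 16, 10783951 to 10784010 (mm9). Pim2, a survival kinase, went from 3.21, 2.86 and 3.81 to -1.52, -1.4, -2.2 and -1.66 and fell by 4.99 (SE 0.27, adjusted p = 7.87e-07), with a probe on chromosome X, 7460211 to 7460264. Without cocultured array 3 the differences were -4.91 for Socs1 and -4.82 for Pim2. Of 28 measured members of the SOCS and JAK-STAT list, 2 rose and 3 fell (Socs1, Pim2 and the cytokine gene Osm), with a median of -0.31 against -0.01 over all genes, and with normexp 5 fell. The 2 rises and 3 falls were 7.14% and 10.7% of the list, against 6.37% and 6.28% of all genes. Osm fell by 2.68 (SE 0.74, adjusted p = 0.0321) and kept its call in 1 of the 7 fits that left out 1 wild-type array (adjusted p of up to 0.11 in the others). Cish, a STAT5 target in many cells, was at 6.69, 6.73 and 6.46 before and 5.69, 6.49, 6.71 and 6.93 after coculture, a difference of -0.17 (SE 0.35, adjusted p = 0.824). Socs2 and Socs3 differed by -0.33 (SE 0.41) and 0.02 (SE 0.56), and Pim1 by -0.79 (SE 0.34, adjusted p = 0.161). Among the receptors and factors themselves, Kit differed by -0.22 (SE 0.3), the IL-3 receptor alpha chain Il3ra by 0.52 (SE 0.32), its shared beta chain Csf2rb by -0.74 (SE 0.26, adjusted p = 0.0868) and Stat5b by -0.9 (SE 0.29, adjusted p = 0.0622). Stat5b passed with median scaling (adjusted p = 0.044), with normexp (0.0342) and without cocultured array 4 (0.0422), and Csf2rb with the percentile over detected probes (0.0422) and without cocultured array 3 (0.045). The other probes of Stat5b differed by -1.15 and, in the other direction, by 0.35. Jak2 rose by 1.41 (SE 0.26, adjusted p = 0.00377), and Bcl6, a transcriptional repressor, by 1.99 (SE 0.47, adjusted p = 0.0142), which was not called without BMMC array 1 (adjusted p = 0.0708). The genes not picked by the naming rule in this paragraph were chosen after their values had been seen. A STAT5-type motif, TTCNNNGAA on either strand, was found within 250 bases before the start of 2 of 20 list genes with a RefSeq promoter (Bcl6 and Socs3) and of 8.13% of all 27025 genes.

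Outside the mediator lists, the genes that became measurable during coculture by the highest folds included many of connective tissue. Where a gene was below background on every array of a group, the fold is a lower bound. The dim group then takes, array by array, the weakest signal that still passed as well above background, or the probe's own signal if that was stronger. Col3a1, a fibrillar collagen chain, exceeded its BMMC level at least 372-fold (adjusted p = 8.46e-05), with 4.96, 6.8, 1.1 and 5.36 on the cocultured arrays. The collagen chaperone Serpinh1 was at least 315-fold higher (4.19, 5.77, 2.95 and 4.33), Col1a1 at least 248-fold, and the small proteoglycan decorin, Dcn, at least 150.0-fold. Outside the collagens, the growth factor pleiotrophin, Ptn, was at least 119-fold higher, the oncostatin M receptor Osmr 113-fold, and the adhesion molecule Vcam1 100.3-fold. Serpinf1, Fbln2, Vasn and Nid1 had bounds of 84.9, 106, 83.5 and 75.3. The twelfth gene, the pattern recognition protein pentraxin 3 (Ptx3), gets no bound, since one of its other probes was well above background on every array and differed by 2.86, against 9.49 on its brightest. Second probes also gave smaller differences for Col3a1 (2.0 against 10.19), Col1a1 (3.96 against 9.98), Osmr (3.05 against 8.85) and Vcam1 (4.35 against 8.5). All 12 lay above every BMMC array on each of the cocultured arrays, which their choice by signal over background nearly fixes. Cocultured array 3 was the lowest of the 4 for all of them except Vasn.

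By class, 12 of 25 measured collagen chains rose and 1 fell, 19 of 33 matrix glycoproteins rose and 0 fell, and 11 of 24 proteoglycan and hyaluronan genes rose and 0 fell, against 6.37% and 6.28% of all genes. The medians of these lists were 2.97, 3.84 and 1.99, and with normexp 0.88, 0.95 and 0.7. With normexp, 6 collagen chains, 14 matrix glycoproteins and 6 proteoglycan genes were called higher. Proteoglycan rises numbered 6 without BMMC array 2 and 7 without BMMC array 1, BMMC array 3, cocultured array 1 or cocultured array 2. Collagen falls numbered 0 without BMMC array 1, BMMC array 2, BMMC array 3, cocultured array 1, cocultured array 3 or cocultured array 4. Of the 33 fibroblast markers measured, of 35 on the array, 24 rose and 1 fell, with a median of 4.58, or 5.35 without cocultured array 3, and with normexp 14 were called higher and the median was 1.49. The summed signal of the markers, on the log2 scale relative to the 75th percentile, was 6.11 to 7.33 on the BMMC arrays and 7.96 to 9.55 on the cocultured ones, the lowest of these being array 3. Without array 3 the rises were 15 collagen chains, 23 matrix glycoproteins, 14 proteoglycan genes and 28 fibroblast markers. Between 9 and 11 markers were well above background on each BMMC array, 31, 32 and 31 on cocultured arrays 1, 2 and 4 and 21 on array 3. Of the markers, Timp3 fell. In a bulk sample, more cells of a type and more RNA per cell cannot be told apart. How much of the signal was fibroblast RNA was not tested, either for the matrix genes or for other genes that became measurable in coculture. Mast cell identity genes, by contrast with the fibroblast list, had 1 rise (Hdc) and 0 falls among 11, with a median of -0.22. Of other cell types, macrophage markers counted 2 rises and 1 fall among 10, with a summed log2 signal of 2.0 to 5.88 on BMMC and 2.88 to 3.79 on cocultured arrays, lymphocyte markers 2 rises among 4, basophil markers 1 rise among 3, dendritic cell markers 1 fall among 5 and erythroid markers 1 fall among 3. Of 2 neutrophil, 7 megakaryocyte and 2 endothelial markers 0 were called, and 0 eosinophil markers passed the filter on low signal. The lack of a call does not show that they were unchanged, and the neutrophil markers had a median difference of -2.13. Relative to the BMMC mean, the macrophage median was -0.98, 1.33 and -0.28 on BMMC arrays 1, 2 and 3. That of the neutrophil markers was -2.3, 3.14 and -0.85, so both were highest on BMMC array 2.

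**Figure D3:**
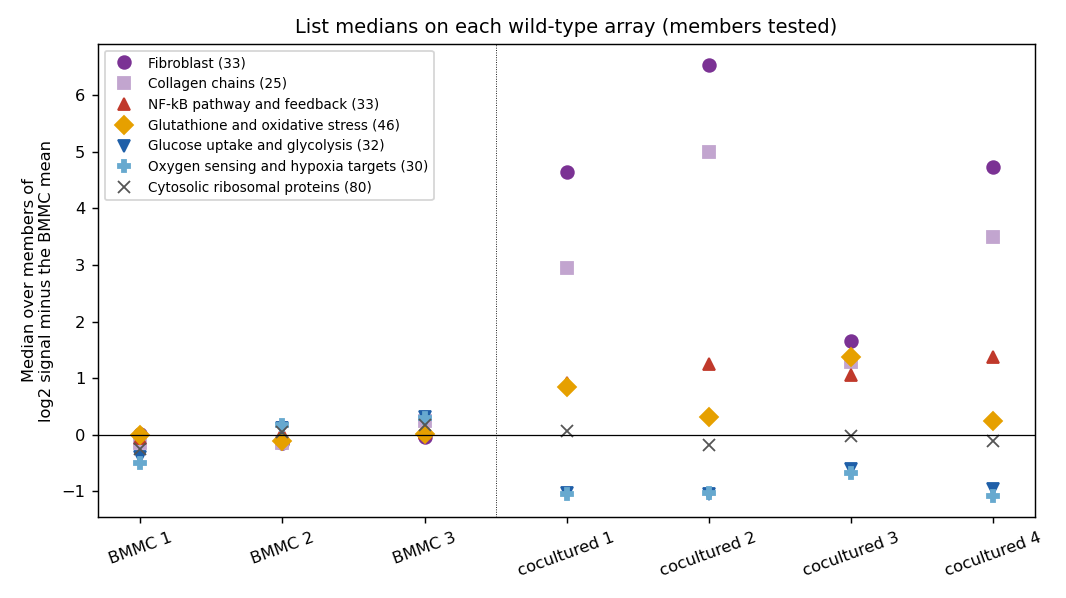
Median over the members of 7 gene lists (number measured in brackets) of the log2 signal minus the BMMC mean, on each of the 7 wild-type arrays. The fibroblast and collagen medians are lowest on cocultured array 3 among the cocultured arrays, the NF-κB median lies near 1 on each of them, both glycolysis and hypoxia medians lie below 0 on each, and that of ribosomal proteins stays near 0.

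Some growth factors, receptor tyrosine kinases and guidance molecules also rose. Of 46 growth factor and receptor tyrosine kinase genes, 19 rose and 5 fell, and with normexp 9 rose. Several of the rises were of genes below background in BMMCs, such as Nrp1, a coreceptor of semaphorins and VEGF, at least 19.7-fold higher, Igfbp7, which binds insulin-like growth factors, at least 51.8-fold, and Fgf7, a ligand of epithelial receptors, at least 10.6-fold. Vegfc, a growth factor of lymphatic vessels, was already expressed and rose on all cocultured arrays to almost the same level, from 2.94, 3.3 and 3.07 to 5.13, 5.12, 5.09 and 5.06, a rise of 2.0 (SE 0.2, adjusted p = 5.86e-05). Falls in the list included Insr, the insulin receptor (-1.37), Igfbp5 (-1.63) and Igfbp4, at least 3.57-fold lower. Of 36 semaphorins, plexins, ephrins and Eph receptors 14 rose and 2 fell (38.9% and 5.56% of the list), and with normexp 6 rose. The rises numbered 7 without BMMC array 1, 8 without BMMC array 3 and 9 without cocultured array 1 or cocultured array 2. Without cocultured array 3 they numbered 18, and the list median was 2.06 in place of 1.49. Sema6d was at least 25.2-fold higher, with -0.09 on cocultured array 3 and 2.38, 0.54 and -0.14 on the others. Sema6b and Sema4a fell by 2.77 (SE 0.28) and 2.37 (SE 0.44). Actin and serum response factor targets counted 8 rises and 0 falls among 47, among them Tpm1, a tropomyosin, by 2.69 (SE 0.33) and Lasp1, an actin-binding adaptor abundant in BMMCs, by 1.44 (SE 0.22). Among 19 Hippo pathway genes 6 rose and 2 fell, and with normexp 2 rose. Hippo falls numbered 0 without BMMC array 1, BMMC array 2 or BMMC array 3 and 1 without cocultured array 1, cocultured array 2, cocultured array 3 or cocultured array 4. The rises included that of the transcription factor Tead1, at least 7.14-fold higher, and its target Ccn1, up by 3.8 and well above background on 1 of 3 BMMC arrays.

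Some genes were lost from measurable signal in turn. Cyp4a12b was at least 106-fold lower after coculture (adjusted p = 8.73e-07), sharing the caution given for Cyp4a12a. Timp3, an inhibitor of metalloproteinases held in the matrix, was at 1.99, 1.99 and 2.48 on the BMMC arrays and below background on all 4 cocultured arrays, at least 70.2-fold lower (adjusted p = 8.73e-07). Its relatives went the other way: Timp1 rose by 4.09 (SE 0.44, adjusted p = 9e-05) and Timp2 by 4.67 (SE 0.87). The T-cell receptor gamma segment Trgv4 was at 1.77, 2.45 and 1.77 before coculture and at least 62.9-fold lower after it. The mitochondrial protein Mgarp was at least 40.2-fold lower, Bambi, a decoy receptor of the TGF-beta family, at least 9.9-fold, and the potassium channel Kcnk5 at least 8.28-fold. Lower bounds for the exchange factor Mcf2l and the retinoid receptor Rxrg were 8.27-fold and 7.12-fold, although a second Mcf2l probe differed by -0.68. Nsg2 (at least 20.8-fold) was not called with normexp (adjusted p = 0.137). Smtnl2 and 6330415B21Rik, with bounds of 6.68 and 7.75, were not called in 2 and 5 of the 7 fits that left out 1 wild-type array, with adjusted p of up to 0.0769 and 0.0876. Smtnl2 was not called with normexp either (adjusted p = 0.186). The immunoglobulin constant gene Igha completed the 12 with a fall of 5.22 on its brightest probe, but gets no bound, since another of its probes was above background on 2 cocultured arrays and differed by 0.48 in the other direction.

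Genes of the NF-κB pathway rose together, among them genes that restrain it. Of 33 measured members, 14 rose and 1 fell (Ikbkg, another of whose probes differed by 0.16 in the other direction, and which was not called without BMMC array 2, BMMC array 3 or cocultured array 1, nor with the mean of all its probes), with a median of 1.03. Without cocultured array 3 the rises numbered 15, and 12 of the 14 stayed called whichever array was left out. The promoters of 2 members that rose are shown because each holds a κB-type sequence just before the start, in the strand of the gene and with the match in capitals. The motif searched is GGG, any 2 bases and TTTCC, on either strand. They are RefSeq sequences of GRCm38.p6, Nfkbia at chr12:55492648-55492897 on the minus strand and Nfkb2 at chr19:46304487-46304736 on the plus strand, each the 250 bases that precede a start.
Nfkbia: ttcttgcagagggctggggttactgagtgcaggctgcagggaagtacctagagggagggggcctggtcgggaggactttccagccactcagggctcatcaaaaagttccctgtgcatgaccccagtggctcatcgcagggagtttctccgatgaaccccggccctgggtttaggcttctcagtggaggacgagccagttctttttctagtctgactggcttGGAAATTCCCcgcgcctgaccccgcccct
Nfkb2: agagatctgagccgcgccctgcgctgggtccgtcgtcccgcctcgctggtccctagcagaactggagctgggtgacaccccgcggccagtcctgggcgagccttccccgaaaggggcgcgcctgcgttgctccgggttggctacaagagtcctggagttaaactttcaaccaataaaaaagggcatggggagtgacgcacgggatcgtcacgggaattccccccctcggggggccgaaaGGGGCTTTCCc
The match began 29 bases before the start in Nfkbia and 11 in Nfkb2. Of 12 list genes that rose and had a RefSeq promoter, 4 held a match (Nfkbia, Nfkb2, Rel and Traf3), against 6 of 28 measured and 447 of all 27025 genes (1.65%). A match describes these letters and not a bound site.

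Nfkbia encodes IκBα, the main inhibitor of NF-κB. It was at 2.18, 2.42 and 2.93 before and 4.82, 7.06, 5.62 and 6.93 after coculture, a rise of 3.6 (SE 0.57, adjusted p = 0.00138). Relb, a subunit of the alternative pathway, was at 0.27, 0.54 and 0.64 and then 3.5, 4.45, 3.49 and 4.76, and rose by 3.57 (SE 0.32, adjusted p = 2.6e-05). Its partner Nfkb2 rose by 2.62 (SE 0.45), the nuclear IκB proteins Nfkbiz by 3.25 (SE 0.5) and Bcl3 by 2.82 (SE 0.58), and the subunit Rel, above background on 1 of 3 BMMC arrays, by 3.01 (SE 0.45). The ranges of the groups did not overlap in any of these 6 genes, but they did so in only 71 of all 2026 called genes. Traf1, a signalling adaptor of TNF receptors, rose by 4.11 (SE 0.58), Tnfaip2 by 3.89 (SE 0.56) and Zc3h12c, an RNase-like regulator, by 1.94 (SE 0.25). The main activating subunit Rela differed by 0.87 (SE 0.28, adjusted p = 0.056) and the deubiquitinase Tnfaip3 by 1.03 (SE 0.45, adjusted p = 0.168), short of the threshold. Without cocultured array 3 Rela passed (adjusted p = 0.00536). Unlike the fibroblast list, the NF-κB list had a median of 1.06 on cocultured array 3, next to 1.03 in the fit, and the counts with other scalings were 10 to 15 rises. The genes beyond Relb, Zc3h12c, Traf1 and Tnfaip2 were picked with their values known.

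TNF receptors, death regulators and AP-1 factors also changed. Of 25 genes of the TNF superfamily and its receptors 7 rose and 2 fell. The rises numbered 4 without BMMC array 1 or cocultured array 2 and 5 without cocultured array 3. The falls numbered 1 without BMMC array 2, BMMC array 3 or cocultured array 1. Fas, the death receptor, was at -2.5, -1.33 and -1.4 and then 1.0, 3.12, 1.77 and 2.16, a rise of 3.76 (SE 0.5, adjusted p = 0.000466). Tnfrsf12a, the receptor of TWEAK, rose by 2.42 (SE 0.49). Tnfrsf13b, the BAFF and APRIL receptor TACI, fell by 2.9 (SE 0.28, adjusted p = 4.81e-05), from 3.12, 3.14 and 3.33 to 0.44, 0.35, -0.4 and 0.8. In the BCL2 family list of 29, 8 rose and 5 fell (27.6% and 17.2% of the list), and the named members lay on both sides of cell death. The pro-death Bcl2l11 (Bim) and Pmaip1 (Noxa) rose by 2.94 (SE 0.54) and 2.44 (SE 0.42), and Mlkl, the effector of necroptosis, by 2.42 (SE 0.46). The protective Bcl2a1b rose by 5.81 (SE 1.23), although it has near-identical copies and was above background on 1 of 3 BMMC arrays. Bcl2, which protects, was at 4.99, 4.95 and 5.22 before and 1.42, 1.38, 3.5 and 1.28 after coculture and fell by 3.16 (SE 0.55, adjusted p = 0.00267), least on cocultured array 3. The pro-death Bad fell by 1.57 (SE 0.32). Mcl1 and Bcl2l1 differed by 0.65 (SE 0.32) and -0.29 (SE 0.3) and were not called. Rises in the family numbered 5 without BMMC array 1 or BMMC array 3. Falls numbered 3 without BMMC array 1, BMMC array 2 or BMMC array 3. Of 27 AP-1, EGR and immediate early factors 5 rose and 0 fell. The rises numbered 3 without BMMC array 1, BMMC array 2, BMMC array 3 or cocultured array 2. Fosl1, below background in BMMCs, was at least 12.4-fold higher, and Mafk, a small Maf protein, rose by 1.46 (SE 0.24). Fos went from 1.32, 3.89 and 1.82 to -1.36, -0.56, -1.23 and -1.26 without a call (difference -3.44, SE 1.21, adjusted p = 0.084), as did Egr1 (difference -1.89, SE 0.68, adjusted p = 0.092), which passed without cocultured array 4 (adjusted p = 0.0222).

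Some genes of glycolysis and of the response to low oxygen fell after coculture. Of 30 measured oxygen-sensing genes and HIF targets, 10 fell and 1 rose, with a median of -0.89, and of 32 genes of glucose uptake and glycolysis 8 fell and 1 rose, with a median of -0.93. Falls among hypoxia genes numbered 6 without BMMC array 2 or BMMC array 3. Falls among glycolysis genes numbered 4 without BMMC array 2 or BMMC array 3. Without cocultured array 3 they numbered 11 and 12. With other scalings both numbered 9 to 12. The promoters of Bnip3 and Car9, which fell, are shown because they hold the core of the HIF binding sequence, ACGTG on either strand, in capitals. Both are RefSeq sequences of GRCm38.p6 in the strand of the gene, Bnip3 at chr7:138909507-138909756 on the minus strand and Car9 at chr4:43506776-43507025 on the plus strand, each the 250 bases before a start.
Bnip3: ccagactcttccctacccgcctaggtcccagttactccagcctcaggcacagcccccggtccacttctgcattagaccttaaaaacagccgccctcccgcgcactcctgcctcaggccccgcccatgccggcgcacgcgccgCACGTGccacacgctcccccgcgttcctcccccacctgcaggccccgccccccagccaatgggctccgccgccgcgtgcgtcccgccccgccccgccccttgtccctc
Car9: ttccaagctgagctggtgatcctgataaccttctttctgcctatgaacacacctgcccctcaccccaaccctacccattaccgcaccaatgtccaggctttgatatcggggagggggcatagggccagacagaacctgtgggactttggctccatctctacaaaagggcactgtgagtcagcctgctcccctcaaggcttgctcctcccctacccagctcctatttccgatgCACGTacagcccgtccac
In Bnip3 the match is the palindrome CACGTG, read on both strands from 108 and 107 bases before the start, which is also an E-box, the site of other factors. In Car9 it began 18 bases before the start. ACGTG is short and common: 18.5% of all 27025 genes held it in this window, against 17 of 25 measured hypoxia genes, 7 of 9 that fell, 15 of 31 measured glycolysis genes and 2 of 8 that fell.

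Bnip3, a mitochondrial protein of mitophagy and cell death, was at 4.33, 5.52 and 6.05 on the BMMC arrays and 1.06, 1.64, 3.66 and 1.71 on the cocultured ones, and fell by 3.28 (SE 0.63, adjusted p = 0.00487). Car9 and Car12 are carbonic anhydrases of the cell surface, and fell by 1.9 (SE 0.39, adjusted p = 0.00649) and 5.24 (SE 0.99, adjusted p = 0.00434), Car12 being above background on 2 of 4 cocultured arrays. The prolyl hydroxylase Egln1, which marks HIF for destruction, fell by 2.0 (SE 0.36). Ak4, a mitochondrial adenylate kinase, fell by 3.75 (SE 0.74) and was above background on 1 of 4 cocultured arrays. In glycolysis, Pfkl, the liver-type phosphofructokinase, was at 2.25, 3.03 and 3.72 and then -1.11, -0.03, 0.67 and -0.07, and fell by 3.14 (SE 0.56, adjusted p = 0.00303). Aldoc, an aldolase, fell by 2.83 (SE 0.42), the enolase Eno1 by 2.46 (SE 0.52), and Pdk1, which holds pyruvate out of the citrate cycle, by 3.74 (SE 0.73). BMMC array 1 was the lowest BMMC array for Bnip3 (4.33), Pfkl (2.25) and Pdk1 (1.39), and no cocultured array reached it. Several well-known members were not called: Ldha differed by -0.61 (SE 0.36, adjusted p = 0.32), Pgk1 by -1.56 (SE 0.51, adjusted p = 0.0634) and the glucose transporter Slc2a1 by -1.2 (SE 0.51, adjusted p = 0.15). Ldha and Pgk1 passed with normexp (adjusted p of 0.0185 and 0.0169) and Pgk1 with quantile normalization (0.0197) and without cocultured array 3 (0.0207). Hexokinase 2, Hk2, differed by 0.2 (SE 0.41), Vegfa by -0.87 (SE 0.5) and Hif1a by 0.42 (SE 0.25). Ndrg1, also counted among HIF targets, went the other way, from 4.3, 4.74 and 5.69 to 7.35, 7.62, 6.91 and 7.92, a rise of 2.54 (SE 0.4, adjusted p = 0.00129). Genes of the respiratory chain, the other route to ATP, had 1 rise and 0 falls among 79.

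**Figure D4:**
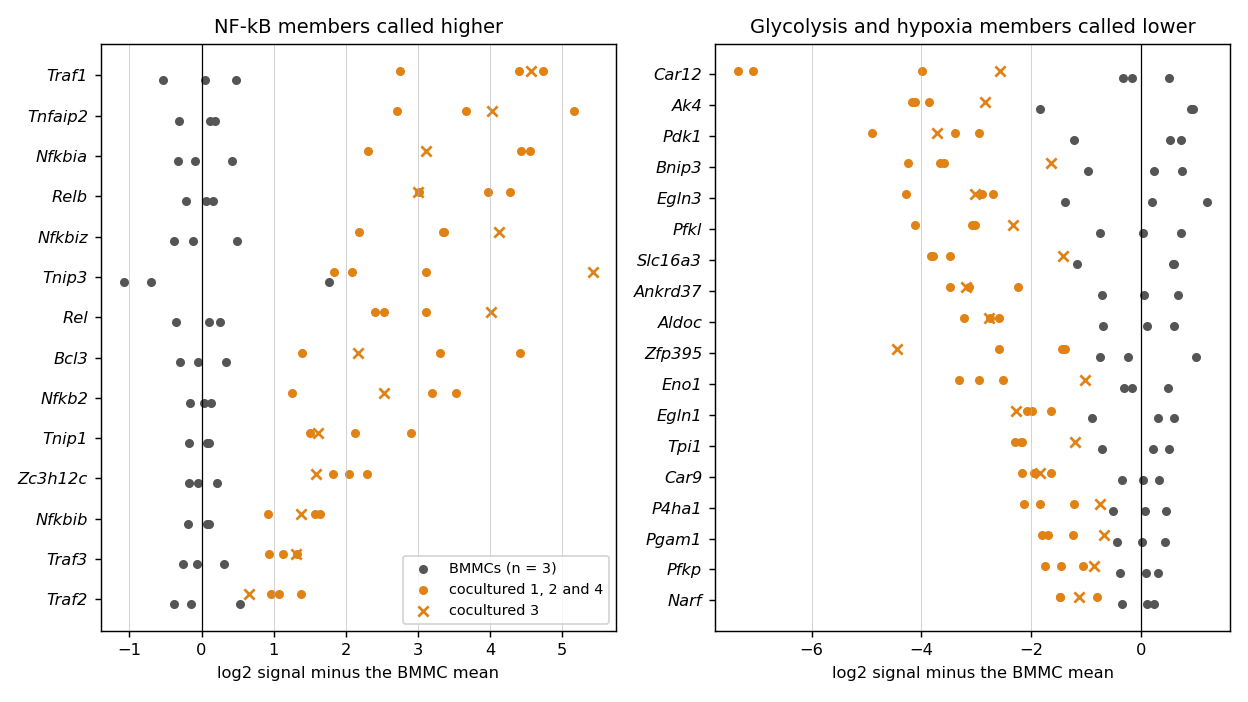
Log2 signal minus the BMMC mean (x axis) on each wild-type array for the 14 NF-κB list members that rose (left) and the 18 glycolysis and hypoxia members that fell (right). Grey points are BMMC arrays, orange points cocultured arrays 1, 2 and 4, and crosses cocultured array 3, which lies among the other cocultured arrays for most NF-κB members and is the nearest to the BMMCs for Car12, Bnip3 and Eno1.

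Genes of defence against oxidants rose in part, and the cocultured arrays differed among themselves. Of 46 genes of glutathione metabolism and oxidative stress 9 rose (19.6%, against 6.37% of all genes) and 0 fell. The list median was 0.62, and 8 rose without cocultured array 3. Srxn1, which repairs oxidised peroxiredoxins, was at 2.64, 2.39 and 2.45 before and 6.37, 5.77, 7.32 and 5.59 after coculture, a rise of 3.77 (SE 0.4, adjusted p = 8.46e-05) on a probe at chromosome 2, 151936919 to 151936978 (mm9). Gpx8 and Gsta4, below background in BMMCs, were at least 15.4-fold and 5.59-fold higher, and Mgst1, a membrane glutathione transferase above background on 1 of 3 BMMC arrays, rose by 5.96 (SE 1.04). Some other genes of defence against oxidants were higher on cocultured arrays 1 and 3 than on arrays 2 and 4. On arrays 2 and 4 Gclc lay near its BMMC level and Nqo1 and Gclm lay below theirs. Cocultured arrays 2 and 4 shared slide 3, and arrays 1 and 3 lay on slides 2 and 4. This split and slide cannot be told apart. Nqo1, a quinone reductase, was at 4.99, 0.55, 6.66 and 0.65 against 2.61, 1.79 and 2.27 in BMMCs, with a mean difference of 0.99 (SE 1.24) that was not called. Gclc, the catalytic subunit for glutathione synthesis, was at 4.32, 1.71, 4.49 and 1.81 against 1.76, 1.65 and 1.98, and Gclm at 0.76, -1.7, 1.61 and -2.19 against -0.79, -1.36 and -0.51. Their adjusted p were 0.22 and 0.736. The same 2 arrays were the highest for Asns, the asparagine synthetase and a target of the stress factor ATF4, at 7.07, 4.5, 6.6 and 4.06 against 4.6, 4.31 and 4.6 (adjusted p = 0.287). Nqo1, Gclc, Gclm and Asns were chosen after their values had been seen. Of 28 ATF4 targets 5 rose (17.9%, against 6.37% of all genes) and 0 fell, with a median of 0.81. The cationic amino acid transporter Slc7a1 rose by 1.76 (SE 0.26, adjusted p = 0.000778) and Atf4 itself by 1.29 (SE 0.27), Herpud1 by 1.35 (SE 0.28) and Cebpb by 1.67 (SE 0.35), and the last 3 lost their call with median scaling (adjusted p of 0.0802, 0.0949 and 0.0564), under which 2 members of the list rose.

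Signalling proteins shared by lymphocytes and mast cells moved in both directions. Prkcq, the protein kinase C theta, fell by 2.18 (SE 0.43, adjusted p = 0.00516), from 2.11, 2.23 and 2.68 to -0.21, 0.35, 0.08 and 0.42. Pik3cd, the leukocyte catalytic subunit p110δ of phosphoinositide 3-kinase, was at 5.46, 5.52 and 5.67 and then 3.56, 3.11, 3.01 and 3.65 and fell by 2.22 (SE 0.28, adjusted p = 0.000293). Sh2b3, the adaptor Lnk that restrains Kit and JAK2, rose by 1.49 (SE 0.31). The Ras activators Rasgrp1 and Rasgrp4 fell by 3.5 (SE 0.47, adjusted p = 0.000466; a difference of -1.07 on its other probe) and 2.49 (SE 0.39, adjusted p = 0.00131). Spred1, a feedback inhibitor of that pathway, rose by 1.28 (SE 0.21) and the MAP kinase phosphatase Dusp10 by 2.73 (SE 0.49). In all, 8 of 32 MAP kinase phosphatases and Ras feedback genes rose and 4 fell, and with median scaling 5 rose. Rises in that list numbered 4 without BMMC array 1 and 5 without BMMC array 2 or BMMC array 3. Falls numbered 2 without BMMC array 1, BMMC array 2, BMMC array 3 or cocultured array 4. Regulators of G proteins parted, with Rgs16 up by 5.38 (SE 0.66; above background on 1 of 3 BMMC arrays) and Rgs11 down, from 0.89 to -3.02 on average (adjusted p = 6.18e-05). Among small GTPases Rhoc rose by 2.93 (SE 0.38) and the haematopoietic Rhoh, which has no GTPase activity, fell by 1.25 (SE 0.26). The phosphodiesterase Pde5a, which breaks down cGMP, fell by 2.06 (SE 0.43) and was above background on 2 of 4 cocultured arrays.

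Cytokine receptors were among the genes that became measurable, and a purinergic receptor and channels among those that fell. Which cells the new receptor signal came from was not tested. Of 40 cytokine receptors 7 rose and 1 fell, or 3 fell with the percentile over detected probes. The rises numbered 4 without BMMC array 1 and 11 without cocultured array 3. The falls numbered 0 without BMMC array 1, BMMC array 3, cocultured array 2 or cocultured array 4 and 2 without cocultured array 1 or cocultured array 3. Il1r1, the signalling receptor of interleukin 1, was below background on all BMMC arrays, at 2.21, 3.45, 0.61 and 2.05 on the cocultured ones and at least 66.1-fold higher (adjusted p = 6.36e-05). Like the median of the fibroblast list, it was highest on cocultured array 2 and lowest on array 3. Il1rl2, the receptor of interleukin 36, was measured on all arrays and rose by 3.7 (SE 0.47), and Il13ra1, a chain of the interleukin 4 and 13 receptors, was at least 3.73-fold higher. The scavenging chemokine receptor Ackr3 was at least 11.9-fold higher. Cd14, the lipopolysaccharide coreceptor, rose by 4.08 (SE 0.61) and was above background on 2 of 3 BMMC arrays, while Irak3, an inhibitor of Toll-like receptor signalling, fell by 2.2 (SE 0.32, adjusted p = 0.000723). P2ry1, an ADP receptor, was at 2.63, 3.53 and 3.37 and then 1.22, 0.62, 1.51 and 1.08, a fall of 2.07 (SE 0.26, adjusted p = 0.000299), with a difference of -0.99 on its other probe. Of 65 ion channels 3 rose (2 to 5 with other scalings) and 8 fell. The rises numbered 1 without BMMC array 1, BMMC array 3, cocultured array 2 or cocultured array 4 and 7 without cocultured array 3. The falls numbered 4 without BMMC array 2 or BMMC array 3 and 5 without BMMC array 1. The potassium channels Kcnk5, given above, and Kcnk6 fell, the second by 1.93 (SE 0.32), and the calcium channel subunit Cacnb4 fell by 6.57 (SE 1.13), with -5.26, -6.34, -1.14 and -6.17 on the cocultured arrays. Cocultured array 3 kept the most of it and was the only one with it above background. In exocytosis, the SNARE Stx11, which is needed for granule release in cytotoxic cells, rose by 3.6 (SE 0.39, adjusted p = 9.37e-05), from -0.71, 0.28 and -0.59 to 2.68, 3.23, 3.84 and 3.29.

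Several lipid genes outside the eicosanoid pathways changed. Mgll, which hydrolyses monoglycerides, was at -0.35, 0.46 and 0.63 before and -3.08, -3.72, -3.64 and -4.32 after coculture, a fall of 3.94 (SE 0.43, adjusted p = 9.37e-05). The cholesterol exporter Abcg1 fell by 2.34 (SE 0.42, adjusted p = 0.00321). Of the enzymes that remove sphingosine or its phosphate, the kinase Sphk1 rose by 3.55 (SE 0.48; above background on 2 of 3 BMMC arrays, and 1.64 on its other probe). The lyase Sgpl1 rose by 2.46 (SE 0.36, adjusted p = 0.000892), from 1.52, 2.42 and 1.46 to 5.03, 3.76, 4.16 and 4.07. Of 24 sphingolipid genes 4 rose and 1 fell (1 or 2 with other scalings). The rises numbered 2 without BMMC array 2. The falls numbered 0 without BMMC array 2 or BMMC array 3. Beside the Cyp4a12 pair, Cyp4f15 fell out of measurable signal, at least 3.15-fold lower (adjusted p = 0.000323). The epoxide hydrolase Ephx1 rose by 3.12 (SE 0.37, adjusted p = 0.000185). The list of 64 P450 and retinoid genes had 5 rises (3 with normexp) and 4 falls and a median of 0.14. The shares that rose and fell (7.81% and 6.25%) were near the 6.37% and 6.28% of all genes. Rises in that list numbered 3 without BMMC array 3, cocultured array 2 or cocultured array 4 and 8 without cocultured array 3. Cholesterol synthesis and uptake had 1 rise (Cyp51, not called with median scaling, adjusted p = 0.0695) and 0 falls among 27, and on cocultured array 3 its median was 0.98, against 0.11, -0.35 and -0.53 on arrays 1, 2 and 4.

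In the nucleus, some histone genes rose. Of 23 histone genes 7 rose and 0 fell, and 6 of the 7 stayed called whichever array was left out. H2bc4 rose by 2.55 (SE 0.45), H2bc1 by 2.32 (SE 0.43), and H2bc12 and H2bc14 by 2.39 and 2.36, although copies of a histone are so similar that a probe may read several. The median of the list was 0.54 in the fit and -0.31 on cocultured array 3. Of 73 chromatin modifiers 0 rose and 6 fell, a share (8.22%) near the 6.28% of all genes. The falls numbered 1 without BMMC array 1 or BMMC array 3 and 2 without BMMC array 2 or cocultured array 1. Among 35 haematopoietic transcription factors 3 rose (1 to 4 with other scalings) and 4 fell. The shares that rose and fell were 8.57% and 11.4%, against 6.37% and 6.28% of all genes. Rises numbered 1 without BMMC array 1 or BMMC array 3 and 5 without cocultured array 3. Falls numbered 2 without BMMC array 3. Gata1, which drives erythroid and mast cell genes, was at 3.24, 3.13 and 3.12 and then 1.03, 1.06, 1.33 and 1.45, and fell by 1.95 (SE 0.24, adjusted p = 0.000225). Klf4 rose by 6.01 (SE 0.89; above background on 1 of 3 BMMC arrays), and Klf5 was at least 4.52-fold higher. The homeobox genes Irx1 and Prrx2, which mark mesenchyme, were at least 39.1-fold and 26.8-fold higher.

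Several lists of constant cell functions held few calls. Of 80 cytosolic ribosomal proteins 1 rose and 0 fell, of 78 mitochondrial ribosome genes 1 and 0, of 47 splicing factors 1 and 1, and of 33 replication genes 0 and 0. The median changes of these 4 lists lay between -0.26 and 0.09. Of 47 proteasome subunits 1 rose and 0 fell with a median of 0.49, but 16 were higher on every cocultured array than on every BMMC array, as were 11.6% of all genes. Proteasome rises numbered 8 with normexp, 4 without cocultured array 2 and 27 in knockout cells. Cell cycle genes of mitosis numbered 0 rises and 1 fall among 28. Cdkn2b, the cell cycle inhibitor p15, nonetheless rose by 2.77 (SE 0.47, adjusted p = 0.00221), from -0.83, -0.95 and -0.25 to 2.24, 2.04, 3.24 and 0.84, while the inhibitor Cdkn1a differed by 0.36 (SE 0.47, adjusted p = 0.707) with 3.95 on cocultured array 3 and 1.94 to 2.41 on the others. Myc differed by -0.18 (SE 0.36, adjusted p = 0.817).

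**Figure D5:**
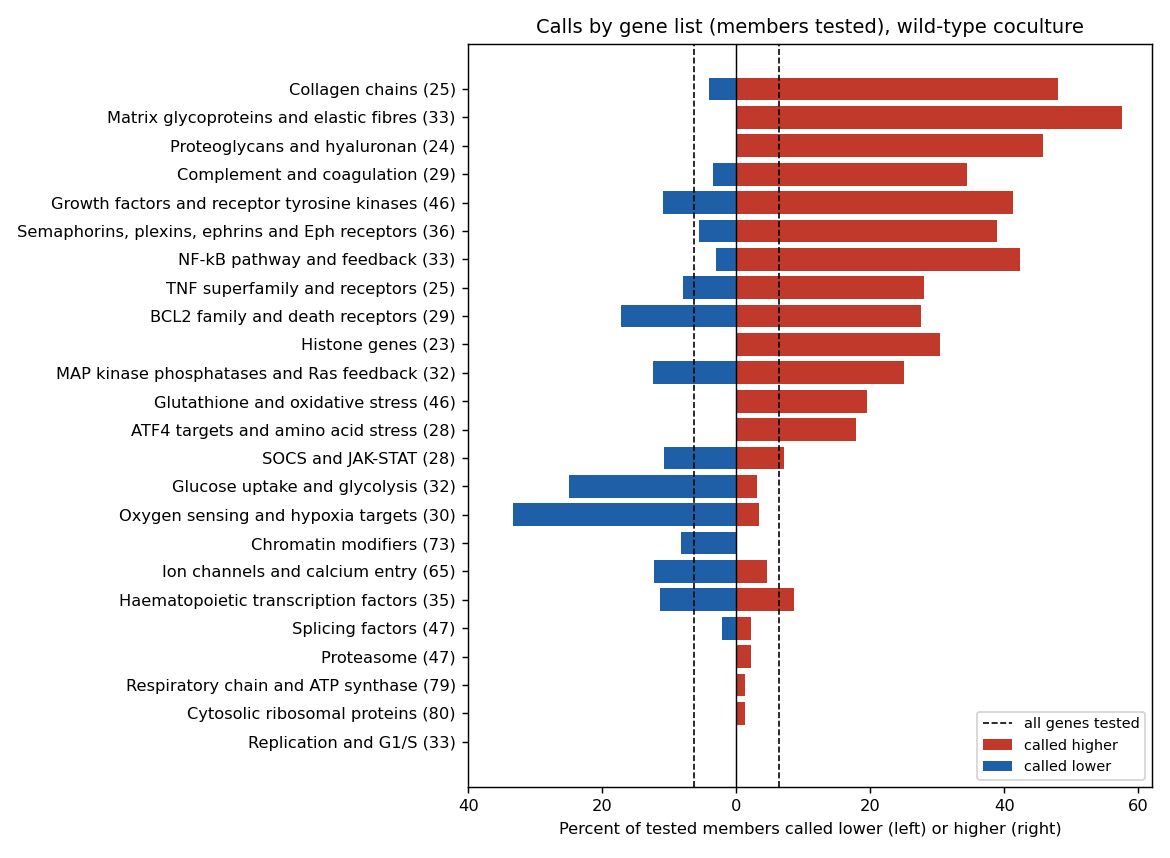
Percent of the measured members of 24 gene lists (number in brackets) that were called higher (red, to the right) or lower (blue, to the left) in wild-type cells after coculture, with dashed lines at the share of all genes called higher (6.37%) and lower (6.28%). Matrix lists reach furthest to the right and the glycolysis and hypoxia lists furthest to the left, and ribosomal, respiratory and replication lists stay near 0.

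The knockout cells, on 7 other arrays, shared part of these changes. Limma called 2325 genes in them (14.5%), 8.5% of all genes higher and 6.02% lower, and 1370 were called in the same direction in both genotypes, 67.6% of the wild-type calls and 58.9% of the knockout calls, with 0 called in opposite directions. Socs1 and Pim2 fell by 5.25 and 4.92 in knockout cells, against 5.07 and 4.99 in wild-type cells. Nfkbia rose by 3.67 against 3.6 and Srxn1 by 4.39 against 3.77. By list, the NF-κB list counted 16 rises and 3 falls in knockout cells, against 14 and 1 in wild-type cells. Glutathione genes counted 20 rises against 9 and ATF4 targets 15 against 5. Collagen chains counted 7 rises against 12, and fibroblast markers 15 against 24, with a median of 2.77 against 4.58. The difference between genotypes was not tested for any list. The difference between the genotypes was called for 0 genes by limma (lowest adjusted p = 0.995), with 128 genes, 0.799% of those tested, at an unadjusted p under 0.05. Without the cocultured arrays of slide 4 that test called 1930 genes, so the count depends on those arrays. A count of 0 does not show that the responses were alike.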

How the data were processed

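Gene expression of 14 RNA samples was measured on single-colour Agilent arrays. The files hold spot intensities that, per the file headers, the authors' scanner software (Agilent Feature Extraction 9.5.1.1, also named in the submitters' processing notes) had background-subtracted and detrended, with no scaling between arrays. Probe positions are those of mm9. Steps of the authors between these files and their own comparison are not given in the sources used here.

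From these, log2 of the processed intensity per the deposited files, minus each array's 75th percentile, was computed after removal of control and outlier spots. Of 41174 probes, 24844 were named by accession through RefSeq, 7855 by symbol or synonym and 8475 kept the file's name. A probe needed a signal well above background on 3 or more arrays (23616 did), and each gene was read from its brightest probe on average, leaving 16012 genes, 13041 with a reference symbol. Limma 3.58.1 (R 4.3.3) fitted a term for each of the 4 groups over 14 arrays, two-sided, with Benjamini-Hochberg adjustment over all genes and a call at an adjusted p under 0.05. The difference between the genotypes is the contrast of both coculture changes. The fit was tested on simulated data. Promoter motifs were searched in RefSeq windows of GRCm38.p6. Tables were made with Python 3.11.15, pandas 2.3.3 and matplotlib 3.10.9.

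The genes and the 104 lists were chosen with earlier results of these data known. Named genes are the 12 largest rises and falls measured on all 7 wild-type arrays without overlap, the 12 highest lower bounds in each direction, up to 4 called members of each list and direction with the lowest adjusted p, and genes said to have been chosen after their values were seen. Mediator lists were left out, and a few genes that the rule names are not reported here. Alternatives were other scalings, background correction, filters, gene summaries, slide and replicate blocks, and leaving out each wild-type array.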

Additional observations from a re-analysis of the deposited data

Results flagged for a closer look

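Among the 4 cocultured arrays, 7 of 184 genes named in the text (3.8%) had a highest or lowest array whose gap to the next exceeded Dixon's critical share of the group's range, a gap that chance alone gives in about 1 of 20 groups. Cocultured array 3 was the highest for Bcl2 (3.50), Bcl2l1 (0.58), Dusp10 (2.29) and Mgarp (-4.12). Cocultured array 1 was the lowest for Mrvi1 (0.0153) and Traf1 (1.22), and cocultured array 2 the highest for Fos (-0.56).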

How the results depend on the processing

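The 7 wild-type arrays, their slides and their positions limit these results, and a probe's signal over background sets which folds are lower bounds. The main count of 2026 calls became 1343 with the replicate block (647 lower, and 1247 in knockout cells). Whether the replicate numbers pair the groups compared could not be decided. Deviations of same-numbered wild-type BMMC and cocultured arrays, which lay on different slides, correlated at 0.120, -0.02 and -0.06. For same-numbered BMMC arrays of both genotypes, which shared a slide, the values were 0.197, 0.497 and 0.491. Low values between slides do not settle whether such arrays shared a mouse or culture. With the wild-type arrays alone, 656 genes rose. Without the cocultured arrays of slide 4, an alternative added after the data had been seen, 3673 genes were called (1641 higher and 2032 lower), 5029 in knockout cells and 1930 for the difference between genotypes. At an adjusted p under 0.01 the calls were 867 (479 higher and 388 lower) and 810 in knockout cells. Knockout calls were 1392 with median scaling and 1408 with no filter on dim probes. Leaving out 1 wild-type array at a time gave 1106 to 2373 calls, 604 to 1246 higher and 481 to 1127 lower, and 1936 to 3151 in knockout cells. The share of calls that were rises was 42.8% with median scaling, 44.6% with the percentile over detected probes and 40.3% with normexp, against 50.3%. Of 157 called genes named in the text, 151 kept their call whichever array was left out, 151 under all 4 other scalings and 155 with the replicate block, and 0 turned direction in any setting. With the mean of all probes of a gene Ikbkg lost its call (adjusted p = 0.259) and Rela gained one (adjusted p = 0.0335). The cause of these differences was not tested, except that a stricter threshold calls fewer genes by construction.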

Other observations

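Genes of complement and of interferon and p53 responses were not covered above. Of 29 complement and coagulation genes 10 rose and 1 fell. Beside C3, C1ra, a protease that starts the classical pathway, was at least 33.2-fold higher, with its lowest level on cocultured array 3 (-1.62). The thrombin receptor F2r, without a value on BMMC array 1, fell by 1.85 (SE 0.31). Of 26 p53 targets 4 rose and 3 fell: Mdm2, which marks p53 for destruction, rose by 1.72 (SE 0.32) and Plk2 by 4.49 (SE 0.77; above background on 2 of 3 BMMC arrays), while the DNA repair gene Xpc fell by 1.99 (SE 0.3, adjusted p = 0.000953). The falls numbered 1 without BMMC array 2, BMMC array 3, cocultured array 1, cocultured array 2 or cocultured array 4. Of 35 interferon response genes 3 rose (1 to 3 with other scalings) and 2 fell. The shares that rose and fell (8.57% and 5.71%) were near the 6.37% and 6.28% of all genes. The GTPase Gbp3 rose by 4.46 (SE 0.67; above background on 2 of 3 BMMC arrays) and Usp18, which removes ISG15 from proteins, fell by 2.5 (SE 0.44). Interferon rises numbered 1 without BMMC array 1, BMMC array 3, cocultured array 1, cocultured array 2 or cocultured array 4 and 4 without cocultured array 3. Interferon falls numbered 1 without BMMC array 1, BMMC array 2, BMMC array 3, cocultured array 1 or cocultured array 4.

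Golgi glycosyltransferases moved both ways, with 6 rises (3 with normexp) and 6 falls among 52. Fut8, which adds core fucose, was at 0.15, 0.38 and 0.72 on the BMMC arrays and -2.98, -2.09, -1.24 and -2.96 on the cocultured ones and fell by 2.73 (SE 0.48), and the sialyltransferase St3gal2 fell by 2.17 (SE 0.42; a difference of -0.93 on its other probe). The galactosyltransferase B4galt5 was at least 3.07-fold higher. Rises numbered 2 without BMMC array 3 and 3 without BMMC array 1, BMMC array 2, cocultured array 2 or cocultured array 4. Falls numbered 2 without BMMC array 3 and 3 without BMMC array 1 or BMMC array 2. Among 41 lysosomal genes 3 rose and 0 fell (2 with 3 of 4 other scalings), with Scarb2, a lysosomal membrane protein, up by 2.02 (SE 0.36). The share of lysosomal genes that rose (7.32%) was near the 6.37% of all genes. Falls among lysosomal genes numbered 2 without cocultured array 3. Of 30 autophagy genes 0 rose and 2 fell, one of them Atg7, by 1.5 (SE 0.26, adjusted p = 0.00233). The share of autophagy genes that fell (6.67%) was near the 6.28% of all genes. Autophagy falls numbered 1 without BMMC array 2.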
